A study of Mus musculus with 12 samples.

Results

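The mitochondrial ribosomal proteins were taken as every gene of the count table whose symbol begins with Mrpl or Mrps followed by a number, with pseudogenes left out. The rule gave 77 genes of the 13780 in the table, 48 with a large subunit symbol (Mrpl) and 29 with a small subunit symbol (Mrps). All 77 passed the filter on low counts, and 13767 genes were tested in all. The genes lie on 17 chromosomes and are encoded in the nucleus.

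RNA-seq was performed on CD8+ T cells purified with magnetic beads from spleens of wild-type C57BL/6J mice that were 8 to 12 weeks old. The 3 groups had 4 libraries each. Naïve cells were frozen directly after isolation and received no treatment. Media cells were activated for 72 h with beads carrying antibodies to CD3 and CD28 in the presence of 10 U/ml IL-2, and lactate cells were activated in the same way with 40 mM sodium lactate added. No library received another sodium salt, so lactate cannot be told apart from the added sodium and osmolality. The activated libraries were read as coming from 5 mice, and for 3 of these mice there were libraries of both conditions. Donor tags recur in low and high library numbers. They were taken as different mice in each range, which the labels do not state. Each range of library numbers is called a library run below, although the labels name no run or batch. Total counts ranged from 14726904 to 21478137 per library, and the counts of single members from 58 to 2706. Levels below are CPM (counts scaled to the library size) after TMM scaling.

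Mitochondria contain their own ribosome, which translates the few mRNAs transcribed from mitochondrial DNA. These mRNAs encode core subunits of the respiratory chain and ATP synthase. The small subunit binds the mRNA and decodes it, and the large subunit joins the amino acids and delivers the chain at the inner membrane. The ribosomal RNAs are mitochondrial transcripts, but every protein of the particle is made in the cytosol from nuclear genes and imported. In T cells, activation is known to be followed by growth of the mitochondrial compartment.

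Transcripts of the mitochondrial ribosome took up more of each library after activation and more again when lactate was present. The summed level of the 48 large subunit genes was 1281, 1350, 1370 and 1368 CPM in the naïve libraries, 2027, 1755, 1982 and 2062 CPM in the media libraries, and 2806, 2765, 2897 and 2827 CPM in the lactate libraries. The 29 small subunit genes summed to 639.6, 675.6, 694.8 and 675.1 CPM in naïve, 1020, 854.5, 1005 and 1021 CPM in media, and 1442, 1395, 1463 and 1430 CPM in lactate. The 3 groups did not overlap in either sum. Media replicate 2 was the lowest media library in both sums and still lay above every naïve library. Together the members held 0.193 to 0.206% of the counts in naïve, 0.259 to 0.315% in media and 0.411 to 0.424% in lactate. In these bulk samples a change in the make-up of the cells and a change in RNA per cell cannot be told apart.

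**Figure D1:**
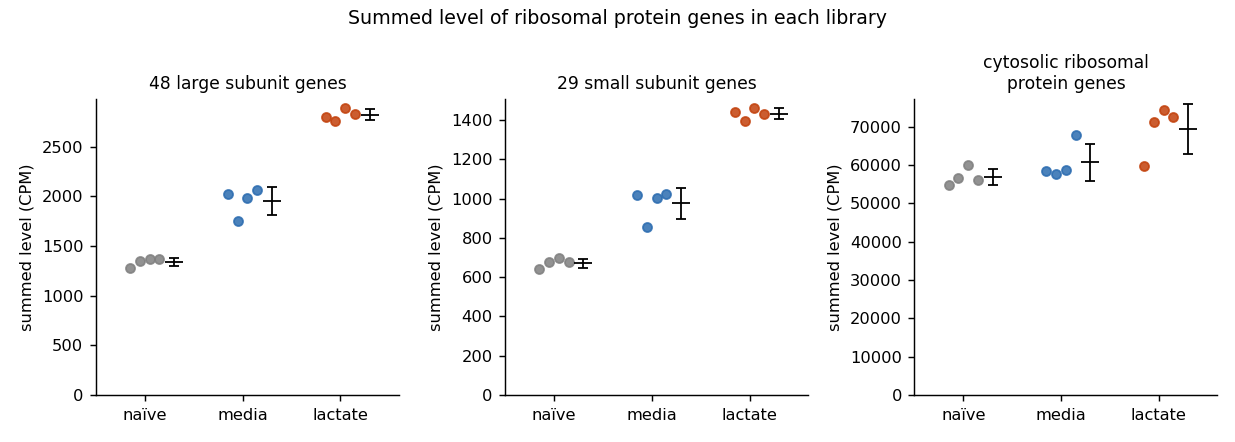
Summed level in CPM of the large subunit genes, the small subunit genes and, for comparison, 89 cytosolic ribosomal protein genes (y axes, from 0) in the 4 naïve, 4 media and 4 lactate libraries (x axis), each point 1 library and each bar the mean ± SD. The groups are apart in the first and second panels, with lactate sums of 2765 to 2897 and 1395 to 1463 CPM, and overlap in the third.

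Markers of other cell types separated the naïve libraries from the activated ones and have to be read beside each comparison with naïve cells. Among B cell markers, Ms4a1 reached 262 CPM, Cd79a 207 CPM and Cd79b 241 CPM in naïve, and none of them was below 79.3 CPM in a naïve library. The highest activated library for each was at 1.69, 1.80 and 8.53 CPM in that order. The 4 myeloid markers (Lyz2, Csf1r, Itgam, Cd68) summed to 391.5 to 1227 CPM in naïve and 5.073 to 18.62 CPM in the activated libraries, and the 3 haemoglobin genes to 75.69 to 2939 CPM and 0 to 1.742 CPM. All of these markers were lower in media than in naïve. Cd4 lay between 11.15 and 27.11 CPM in naïve and below 1 CPM in every activated library. Cd8a, the label's defining gene, was at 867.4 CPM in naïve, 916.4 CPM in media and 824.1 CPM in lactate on average, and was called in none of the comparisons. Its naïve libraries ranged from 388 to 1210 CPM, so the lack of a call does not show a steady level. Cd8b1, for the other chain of the CD8 receptor, was at 809.8, 425.8 and 519.2 CPM and was lower in media than in naïve (-0.93 on the log2 scale, edgeR adjusted p = 0.00287). Its naïve libraries, at 421 to 1080 CPM, overlapped its media libraries, at 369 to 479 CPM. The part of other cells in the naïve results was not tested. Between lactate and media, none of these 3 B cell markers and none of the 4 myeloid markers passed the threshold in the fit without a block, and the CD3 chains Cd3e, Cd3d and Cd3g were lower in lactate. Ms4a1 lay at 0.613 to 1.69 CPM in media and 0 to 0.530 CPM in lactate (edgeR adjusted p = 0.0479), and Cd79a at 0.836 to 1.80 CPM and 0.262 to 0.723 CPM (edgeR adjusted p = 0.0153), so neither gene overlapped between the groups. With the donor as a block Cd79a and Cd68 were called lower in lactate (edgeR adjusted p = 0.00956 and 0.00866), and in DESeq2 Cd79a, Ms4a1 and Itgam were (adjusted p = 0.000341, 0.00115 and 0.00534).

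The comparison of lactate with media asked what sodium lactate does to cells during activation. Of the 77 members, 51 were higher in lactate and 0 were lower in edgeR's quasi-likelihood test (adjusted p of at most 0.01), against 13.9% of all tested genes called higher and 11.1% called lower. The higher members made up 66.2% of the list. The median log2 fold change was 0.59 over the members and 0.00 over all tested genes. In 64 members every lactate library lay above every media library, which held for 23.2% of all tested genes. The sign was positive in 75 members. The members were 0.58 higher (median log2 difference) among libraries of the low run of library numbers, with 2 lactate and 3 media libraries, and 0.51 higher in the high run, with 2 lactate libraries and 1 media library. With the donor as a block, 45 members were higher and 0 lower.

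The shares of higher genes were similar in the large and the small subunit. Of the large subunit genes 32 of 48 were higher (66.7%), with a median log2 fold change of 0.60. Of the small subunit genes 19 of 29 were higher (65.5%), with a median of 0.50. The difference between the subunits was not tested, since members of one particle are not replicates of a condition. Some symbols do not give the position of the protein: the products of Mrps18a and Mrps30 sit in the large subunit, and that of Mrps36 is found with the 2-oxoglutarate dehydrogenase complex. With these moved or left out, 34 of 50 large and 17 of 26 small subunit genes were higher, with medians of 0.60 and 0.49.

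**Figure D2:**
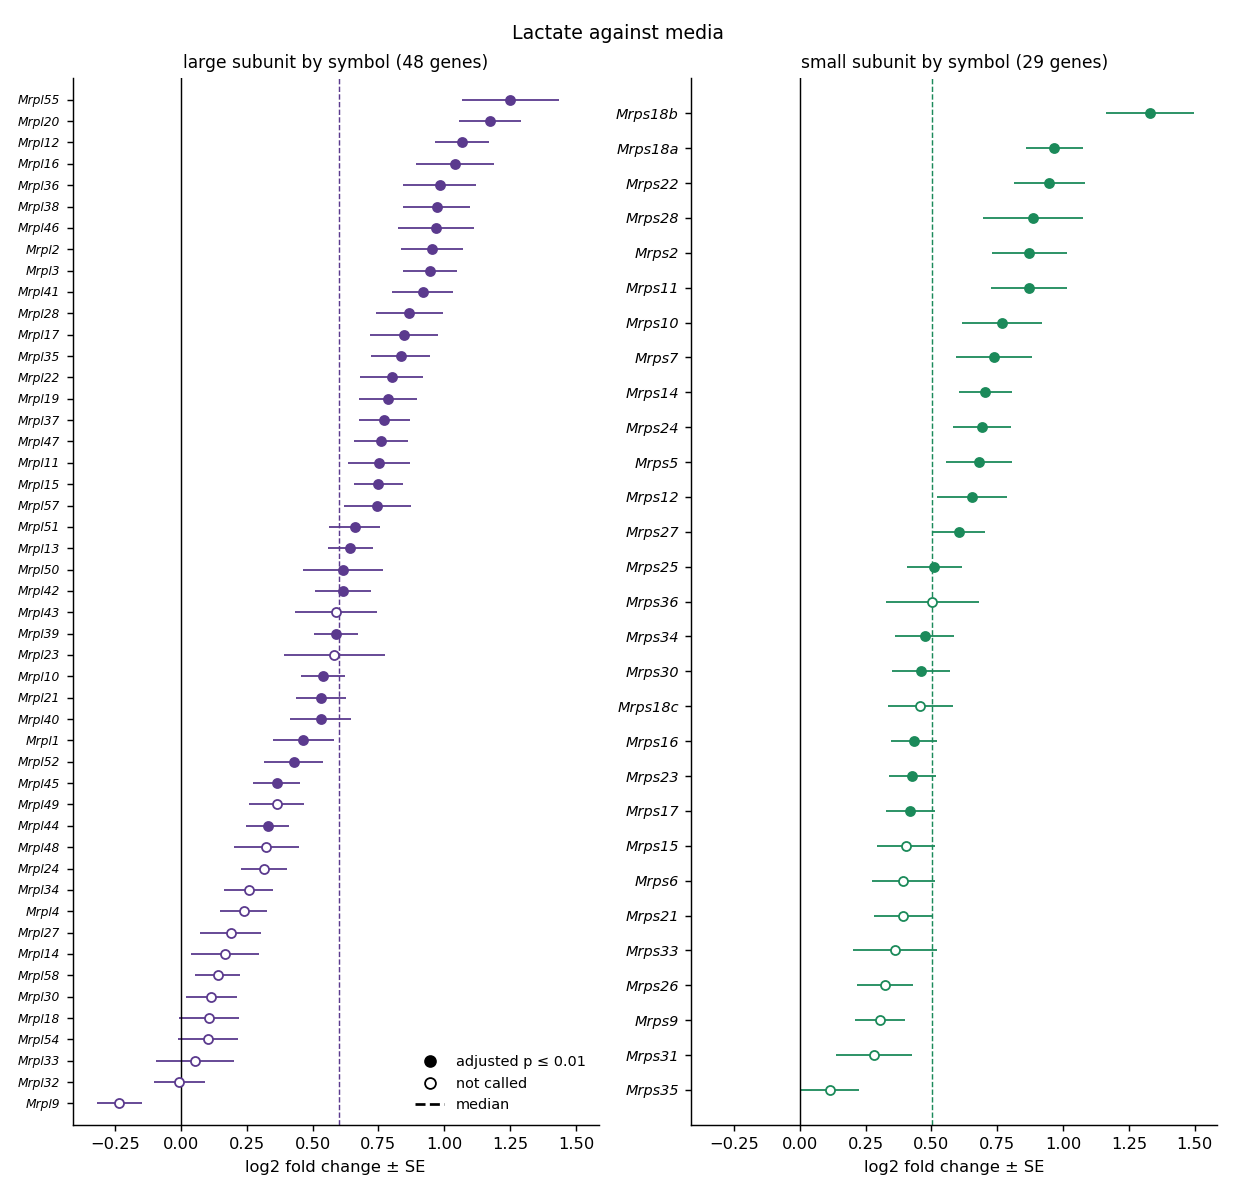
Log2 fold change between lactate and media cells (x axis) of each large subunit gene (left) and small subunit gene (right), with its standard error as a bar, in order of size. Filled points had an adjusted p of at most 0.01 and dashed lines mark the medians, 0.60 and 0.50. Mrpl55 and Mrps18b lead the lists, and Mrpl9 and Mrpl32 are the members on the left of 0.

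The largest increase belonged to Mrps18b, 1 of 3 related genes for an S18 protein, of which the product of each takes a different place on the ribosome. Mrps18b (ENSMUSG00000024436, chr17:35910379-35916389, GRCm38) was at 19.24, 12.06, 18.62 and 14.17 CPM in the media libraries and 47.6, 38.2, 40.11 and 35.22 CPM in the lactate libraries. Every lactate library was above every media library, and the log2 fold change was 1.33 ± 0.17 (SE, adjusted p = 0.000129). The naïve libraries, at 16.38 to 21.62 CPM, overlapped the media libraries. Of the exon length of this gene 30.5% overlaps another gene on the opposite strand. Mrps18a, on the same chromosome (chr17:46110986-46128910), went from 31.67, 25.54, 30.66 and 25.58 CPM to 58.47, 55.92, 54.05 and 53.38 CPM, again without overlap, a log2 fold change of 0.97 ± 0.11 (adjusted p = 7.56e-05). Mrps18c on chr5 was at 21.04, 20.24, 20.9 and 24.45 CPM in media and 26.34, 30.61, 31.84 and 30.21 CPM in lactate. Its groups did not overlap, but its log2 fold change of 0.46 ± 0.12 missed the threshold (adjusted p = 0.0115) and passed it in 8 of the alternative settings, among them without naïve replicate 4.

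Among the large subunit genes Mrpl55, the counterpart of bacterial L31 in the central protuberance, rose most. Mrpl55 (ENSMUSG00000036860, chr11:59202486-59206134) was at 13.59, 7.748, 10.7 and 13.54 CPM in media and 28.64, 27.09, 27.31 and 25.49 CPM in lactate, a log2 fold change of 1.25 ± 0.18 (adjusted p = 0.000296). Mrpl20, whose bacterial relative takes part in the folding of the large subunit RNA, went from 30.84, 23.14, 28.54 and 28.21 CPM to 71.23, 52.35, 63.6 and 62.92 CPM, a log2 fold change of 1.18 ± 0.12 (adjusted p = 5.76e-05). In both genes the media libraries overlapped the naïve libraries (8.471 to 12.77 CPM for Mrpl55 and 22.85 to 26.22 CPM for Mrpl20), and neither was called between media and naïve (adjusted p = 0.502 and 0.133). Leaving out media replicate 2, the lowest library of both, gave 1.10 for Mrpl55.

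Mrpl12, which forms the stalk that recruits translation factors and also binds the mitochondrial RNA polymerase, rose in both steps. Its level was 33.59, 32.86, 33.73 and 36.08 CPM in naïve, 65.29, 48.07, 64.93 and 67.27 CPM in media, and 134.4, 128.8, 125.6 and 125.7 CPM in lactate. No group overlapped another. The log2 fold change was 0.85 ± 0.10 between media and naïve (adjusted p = 1.24e-05) and 1.07 ± 0.10 between lactate and media (adjusted p = 5.56e-05). Among its neighbours in the stalk, Mrpl10 and Mrpl11 were also higher in lactate (0.54 and 0.75 on the log2 scale) and Mrpl54 was not called (0.10, adjusted p = 0.507), so that 3 of the 4 stalk genes measured were higher.

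The remaining increases that led each subunit were of similar size. Mrpl16, which lies close to the peptidyl transferase centre, had a log2 fold change of 1.04 ± 0.15 and Mrpl36 of 0.98 ± 0.14. Among the small subunit genes Mrps22 rose by 0.95 ± 0.14, Mrps28 by 0.88 ± 0.19 and Mrps2 by 0.87 ± 0.14. All 5 had adjusted p between 0.000231 and 0.00307. The call of Mrps28 was lost without lactate replicate 3 (log2 fold change 0.86). Mrps12 and Mrps5, both part of the decoding region, were higher in lactate by 0.66 ± 0.13 and 0.68 ± 0.12 (adjusted p = 0.00212 and 0.00117) and were not called between media and naïve (adjusted p = 0.917 and 0.0691).

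**Figure D3:**
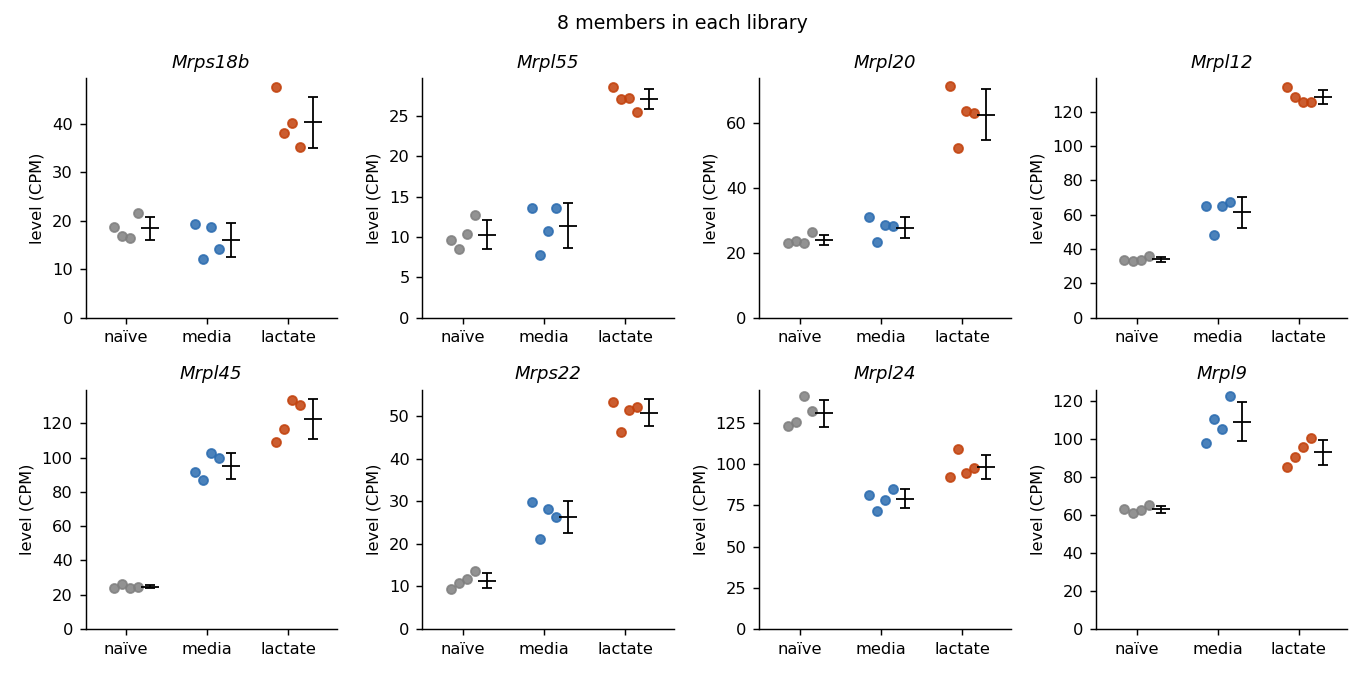
Level in CPM (y axis, from 0) of 8 members in the 4 naïve, 4 media and 4 lactate libraries (x axis), each point 1 library and each bar the mean ± SD. Mrps18b, Mrpl55 and Mrpl20 stand near their naïve level in media and are higher in lactate, Mrpl45 stands at 23.95 to 26.25 CPM in naïve and 86.65 to 102.9 CPM in media, Mrpl24 is highest in naïve, and Mrpl9 is highest in media.

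The members with a negative sign in lactate had both risen with activation. Mrpl9 (chr3:94443318-94451130) was at 62.78, 60.8, 62.61 and 65.04 CPM in naïve, 97.89, 110.4, 105.1 and 122.6 CPM in media, and 84.91, 90.56, 95.36 and 100.1 CPM in lactate. Media and lactate overlapped, and the log2 fold change of -0.23 ± 0.09 did not pass the threshold in edgeR (adjusted p = 0.049) but did in DESeq2, which called Mrpl9 lower (adjusted p = 0.00871). Mrpl32 was at 40.32 to 48.94 CPM in media and 42.06 to 48.96 CPM in lactate (log2 fold change -0.01 ± 0.10, adjusted p = 0.988). Both were named for their sign after their values were seen, and Mrpl32 was higher in media than in naïve by 0.64 on the log2 scale (adjusted p = 7.49e-05). Mrpl18, of the central protuberance, and Mrpl54, of the stalk, were among the most abundant members and differed by 0.11 ± 0.11 and 0.10 ± 0.11 (adjusted p = 0.494 and 0.507). Mrpl58, a peptidyl-tRNA hydrolase that became part of the large subunit, was at 41.36 to 50.6 CPM in media and 47.91 to 54.19 CPM in lactate, which overlap (0.14 ± 0.09, adjusted p = 0.218).

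By place in the large subunit, 4 of 8 genes of the central protuberance and 6 of 8 genes around the tunnel exit were higher in lactate, with median log2 fold changes of 0.43 and 0.59. Of the 45 members with a bacterial counterpart 29 were higher (median 0.66), and of the 30 listed as specific to mitochondria 20 were higher (median 0.51). The gene counts per place are small, and the shares were not compared by a test. Mrpl44 and Mrpl45, the latter of which holds the particle at the inner membrane near the exit, were called at 0.33 ± 0.08 and 0.36 ± 0.09 (adjusted p = 0.00696 and 0.00691). With the donor as a block both lost the call (adjusted p = 0.0265 and 0.0332), as did Mrpl1, Mrps23 and Mrps30 (0.018, 0.0115 and 0.0115). Leaving out single libraries of each group also ended the calls of Mrpl44, Mrpl45, Mrpl1 and Mrps30, that of Mrps23 was lost without lactate replicate 3 or 4, and that of Mrps25 without lactate replicate 3.

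The promoters of Mrps18b, Mrpl55, Mrpl20 and Mrpl12, the members with the largest increases, are shown beside that of Mrps18a, a relative of Mrps18b. Mrps18a was not next in size, as Mrpl16 and Mrpl36, among others, rose more and are not shown. The sequences are bases before the RefSeq start (GRCm38.p6), 5′ to 3′ on the strand of the gene. Bases inside the gene as annotated in GENCODE M21 were left out. The stretches of Mrps18a and Mrpl12 therefore stop short of the RefSeq start. Capitals mark the letters searched for on both strands. These were GGGCGG for SP1, CACGTG for the E-box, CCGGAAG for ETS factors, AAGATGGC for YY1 and GCATGCGC for the shorter NRF1 site, with ACGTG and GCGTG for hypoxia-inducible factors.
Mrps18b, chr17:35916441-35916590, minus strand: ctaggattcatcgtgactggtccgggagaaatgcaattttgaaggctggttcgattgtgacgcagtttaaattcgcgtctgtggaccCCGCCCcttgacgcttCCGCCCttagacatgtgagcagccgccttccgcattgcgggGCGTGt
Mrps18a, chr17:46110854-46110985, plus strand: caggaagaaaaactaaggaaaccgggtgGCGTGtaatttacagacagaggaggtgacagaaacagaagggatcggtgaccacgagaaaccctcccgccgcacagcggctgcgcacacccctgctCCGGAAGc
Mrpl55, chr11:59202336-59202485, plus strand: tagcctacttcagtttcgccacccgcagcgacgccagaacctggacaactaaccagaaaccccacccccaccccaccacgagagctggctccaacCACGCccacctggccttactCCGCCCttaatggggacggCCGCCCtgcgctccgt
Mrpl20, chr4:155802728-155802877, plus strand: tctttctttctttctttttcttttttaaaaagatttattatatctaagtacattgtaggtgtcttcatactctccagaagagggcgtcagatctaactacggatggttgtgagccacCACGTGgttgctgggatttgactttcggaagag
Mrpl12, chr11:120484487-120484612, plus strand: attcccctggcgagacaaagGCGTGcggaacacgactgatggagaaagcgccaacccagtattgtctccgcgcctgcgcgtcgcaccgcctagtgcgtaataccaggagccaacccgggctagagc
No motif was found in all 5 stretches. GCGTG, the letters of a hypoxia response element, was in 4 of them and CACGTG, an E-box, in that of Mrpl20, where ACGTG overlaps it on both strands.

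Over all members, a promoter window of 250 bases before to 50 bases after the start was found for 68. The letters CCGGAAG, bound by ETS factors, were in 25 windows (36.8%, against 20.6% of the windows of all genes in the table) and those of the shorter NRF1 site in 8 (11.8% against 6.07%). AAGATGGC, bound by YY1, was in 12 windows (17.6% against 5.39%). GGGCGG, bound by SP1, was in 34 (50.0% against 68.2%) and the E-box in 5 (7.35% against 11.8%). ACGTG was in 23.5% against 29.5% and GCGTG in 55.9% against 55.7%. These shares describe letters, not binding.

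Members with AAGATGGC were found both among those called and among those not called. With lactate, 10 of the 12 members with these letters and 35 of the 56 without them were higher, with medians of 0.72 and 0.52. With activation, 5 of the 12 and 38 of the 56 were higher, with medians of 0.20 and 0.63. In 8 of the 12 the letters lay after the start on the strand of the gene, and in 6 of these 8 the ATG inside them was an annotated start codon (GENCODE M21). Capitals mark the letters in sites of Mrps18a, Mrps27 and Mrps7, called higher in lactate, and of Mrpl49, which was not called. Each lies on a start codon.
Mrps18a, chr17:46111007-46111030, plus strand: tgcgttccAAGATGGCggccctca
Mrps27, chr13:99344792-99344815, plus strand: tgcgctccAAGATGGCggctccca
Mrpl49, chr19:6057724-6057747, minus strand: gaggcgccAAGATGGCagcagcgg
Mrps7, chr11:115604150-115604173, plus strand: cagcggccAAGATGGCtgcccccg

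The full NRF1 palindrome, which contains the shorter site, was found in the windows of 3 members (4.41% against 2.39% of all genes in the table). They are shown because they included Mrpl9 and Mrpl32, the members with a negative sign in lactate, beside Mrpl39, which was higher in lactate (0.59 ± 0.09, adjusted p = 0.000278). All 3 were higher in media than in naïve, with log2 fold changes of 0.80, 0.64 and 0.83. Capitals mark the palindrome.
Mrpl9, chr3:94443298-94443327, plus strand: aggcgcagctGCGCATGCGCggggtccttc
Mrpl32, chr13:14613105-14613134, minus strand: tttgacccttGCGCATGCGCaagaggggcc
Mrpl39, chr16:84735350-84735379, minus strand: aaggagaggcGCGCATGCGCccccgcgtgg

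The comparison of media with naïve cells describes activation itself. Of the 77 members 50 were higher in media and 1 was lower, against 28.5% of all tested genes called higher and 29.0% called lower. The median log2 fold change was 0.60 over the members and -0.03 over all tested genes. In 49 members every media library lay above every naïve library, which held for 30.7% of all tested genes. Of the large subunit genes 31 were higher and 1 lower (median 0.62), and of the small subunit genes 19 were higher and 0 lower (median 0.60). Medians within the low and the high run were 0.61 and 0.61 (3 against 3 and 1 against 1 library). Markers of B, myeloid and red cells were lower in every media library than in every naïve library, as given above, and their part in these values was not tested.

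Mrpl45 rose most with activation. Mrpl45 (ENSMUSG00000018882, chr11:97315716-97329920) was at 23.95, 26.25, 24.08 and 24.71 CPM in naïve, 91.32, 86.65, 102.9 and 99.69 CPM in media, and 109.0, 116.6, 133.7 and 130.4 CPM in lactate. No group overlapped another, and the log2 fold change between media and naïve was 1.94 ± 0.09 (adjusted p = 7.13e-09). Mrpl1, which forms the mobile stalk beside the exit site for tRNA, followed with 1.52 ± 0.12, from 14.2 to 16.82 CPM in naïve to 36.45 to 53.4 CPM in media. Mrpl14, Mrpl18 and Mrpl27 had log2 fold changes of 1.49 ± 0.13, 1.38 ± 0.12 and 1.33 ± 0.12. Of these 5 genes Mrpl14, Mrpl18 and Mrpl27 did not pass the threshold with lactate (0.17, 0.11 and 0.19), and Mrpl1 and Mrpl45 did (0.47 and 0.36).

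Among the small subunit genes Mrps6 rose most with activation, from 7.51 to 8.837 CPM in naïve to 16.59 to 22.74 CPM in media (1.27 ± 0.12, adjusted p = 1.67e-06). Mrps22, a protein specific to mitochondria, was at 9.299, 10.69, 11.8 and 13.61 CPM in naïve, 29.87, 21.06, 28.15 and 26.21 CPM in media, and 53.4, 46.22, 51.5 and 52.03 CPM in lactate. Its groups did not overlap, and it differed by 1.21 ± 0.14 between media and naïve. Mrps36 (1.00 ± 0.18), Mrps10 (0.97 ± 0.16) and Mrps27 (0.94 ± 0.10) completed the 5. Mrps36, the protein found with a TCA cycle enzyme, was at 3.249 to 3.664 CPM in naïve and 5.685 to 9.387 CPM in media, and with lactate it did not pass the threshold (0.50 ± 0.18, adjusted p = 0.0382), though it did without media replicate 1 (0.67).

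The member that was lower after activation was Mrpl24, a protein at the tunnel exit. Mrpl24 (ENSMUSG00000019710, chr3:87919506-87923672) was at 123.4, 125.9, 141.8 and 132.7 CPM in naïve, 81.2, 71.76, 78.59 and 85.27 CPM in media, and 92.6, 109.2, 94.87 and 97.66 CPM in lactate. Every media library was below every naïve library (-0.73 ± 0.09, adjusted p = 1.04e-05). The lactate libraries lay between the other groups (0.32 ± 0.09 against media, adjusted p = 0.0119). It shares 26.3% of its exon length with Rrnad1 on the opposite strand.

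**Figure D4:**
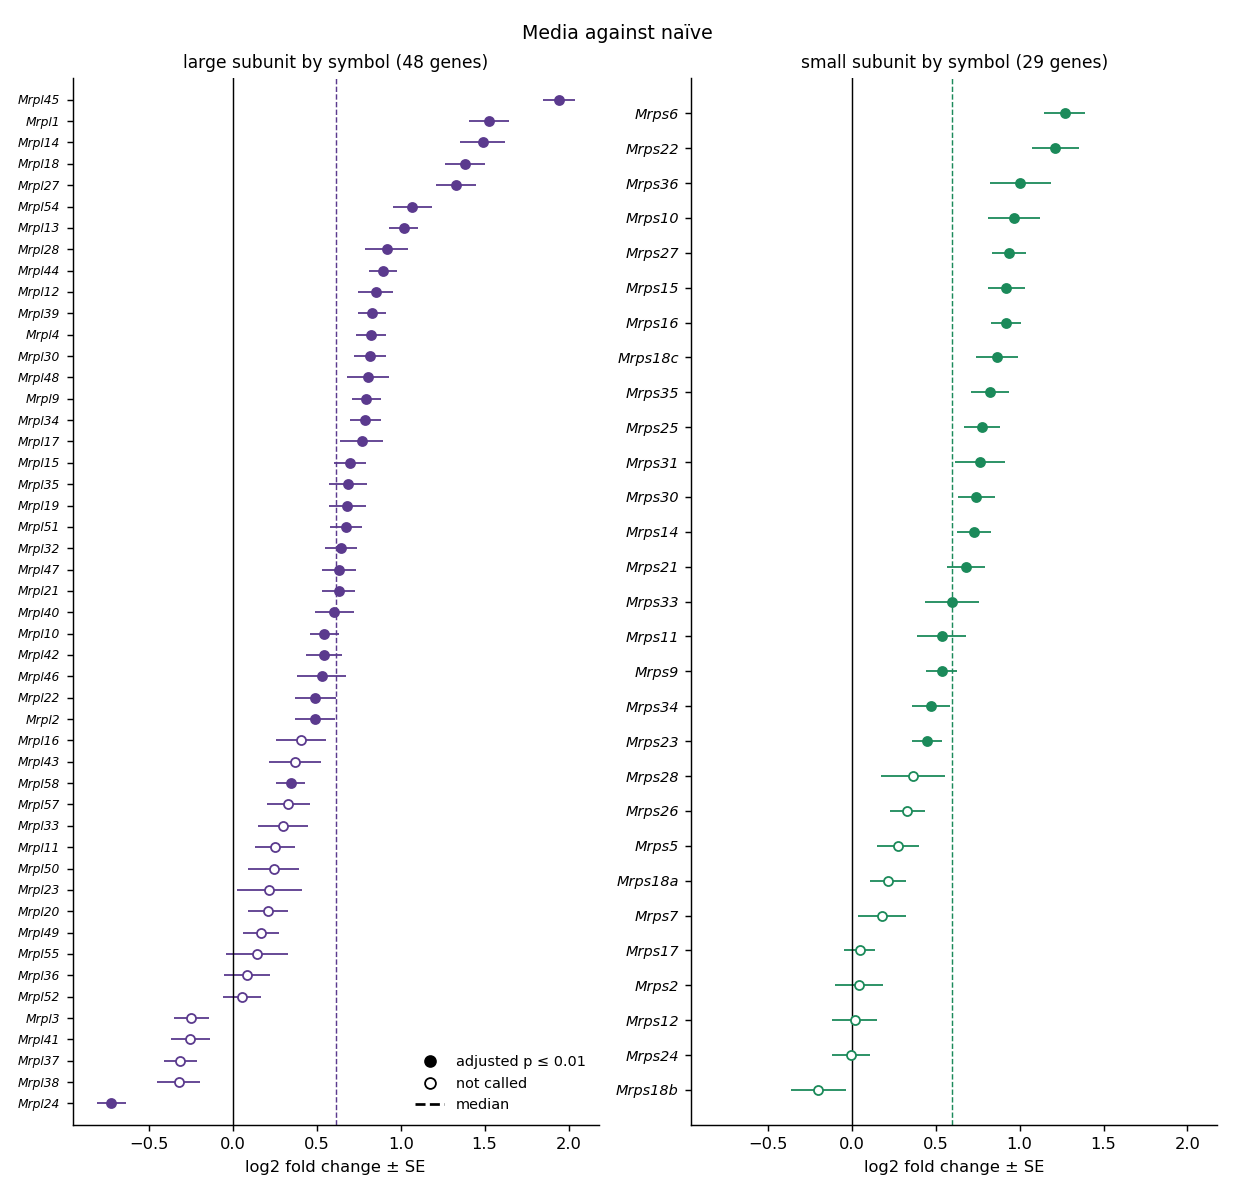
Log2 fold change between media and naïve cells (x axis) of each large subunit gene (left) and small subunit gene (right), with its standard error as a bar, in order of size. Filled points had an adjusted p of at most 0.01 and dashed lines mark the medians, 0.62 and 0.60. Mrpl45 lies at 1.94, and Mrpl24 is the filled point on the left of 0.

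Lactate cells compared with naïve cells combine both steps and share their libraries with the comparisons above. Here 75 members were higher and 1 was lower, Mrpl24 (-0.41 ± 0.09, adjusted p = 0.000862), against 33.0% of all tested genes called higher and 32% called lower. All 29 small subunit genes and 46 of the 48 large subunit genes were higher. The median log2 fold change was 1.16 over the members and 0.01 over all genes, and the largest were 2.31 for Mrpl45 and 2.16 for Mrps22. The member that was not called was Mrpl33, at 21.34 to 32.11 CPM in naïve and 33.24 to 39.51 CPM in lactate (0.35 ± 0.15, adjusted p = 0.0486). Mrpl33 was called with a term for the library run (0.44, adjusted p = 0.00388) and with the gene length correction (0.63, adjusted p = 0.00156), and its log2 fold change was 0.23 without naïve replicate 4. The markers of other cells were again low in lactate and high in naïve.

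Levels of different members can be set beside each other only per length, as TPM (transcript share per unit of gene length). By the gene lengths of the table the highest mean TPM over the 12 libraries belonged to Mrpl54 (185.7), Mrpl18 (163.8) and Mrpl12 (160.0) in the large subunit and to Mrps23 (131.8), Mrps15 (101.9) and Mrps7 (80.3) in the small subunit. The lowest were Mrpl23 (7.30), Mrpl48 (10.1) and Mrpl33 (15.1), and Mrps25 (11.7), Mrps33 (12.4) and Mrps10 (14.9). The table's length is the union of all annotated exons, which for several members is far longer than the coding transcript. By the length of the longest coding transcript, a setting chosen after the data had been seen, Mrpl33 was at 159.5 TPM, Mrpl23 at 33.5 and Mrps10 at 74.7, while Mrpl54 was at 174.9 and Mrps25 at 8.74. The order is therefore given only with the length it rests on.

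The large subunit genes held between 69.53 and 71.51% of all member TPM in every library. The share was 69.94, 69.53, 69.83 and 70.48% in naïve, 70.45, 71.51, 70.32 and 70.78% in media, and 69.73, 70.05, 70.22 and 70.16% in lactate. Naïve and lactate overlapped, and each media library lay above every lactate library, the closest at 70.32 and 70.22%. By CPM, media (66.36 to 67.26%) and lactate (66.05 to 66.47%) overlapped. With subunits by position, media (72.05 to 73.23%) and lactate (71.64 to 72.12%) overlapped as well. By coding transcript length naïve and lactate did not overlap: the share was 69.7 to 70.27% in naïve, 69.18 to 70.46% in media and 68.07 to 68.5% in lactate, so that naïve overlapped media, and both lay above lactate. The spread of the members among themselves was taken as the SD of log2 CPM over the 77 genes, with 0.5 CPM added. It is not per length, so it also depends on the lengths of the genes. The SD was 0.831 to 0.858 in naïve, 0.772 to 0.866 in media and 0.746 to 0.766 in lactate. It was lowest in lactate, without overlap with either group.

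Several members share exons or start regions with other genes, which bears on the counts. In 9 members at least 20% of the exon length overlaps another gene, up to 69.8% for Mrps25 (with Nr2c2) and 77.8% for Mrps34 (with Nme3 and Mapk8ip3). Mrps18b, Mrpl24, Mrps27 (24.2%) and Mrps18c (23.2%) were also among them. Whether the counting used strand is not given in the sources used here, so the values of all 9 are uncertain. Without them 45 of 68 members were higher in lactate than in media and 44 of 68 in media than in naïve. A protein-coding gene on the opposite strand started within 1000 bases upstream of 18 members (23.4%, against 10.6% of 11913 protein-coding genes in the table). These partners did not all move with the member: Ppp1r10, which starts 45 bases from Mrps18b, differed by 0.39 on the log2 scale with lactate (adjusted p = 0.166), and Psma2, 75 bases from Mrpl32, by 0.57 (adjusted p = 0.000185). These 2 pairs were picked after their values were seen.

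Other genes of the same machinery were described by lists. For comparison, 13.9% of all tested genes were called higher in lactate than in media and 11.1% lower. Of the 5 mitoribosome proteins whose symbols do not begin with Mrp, 3 were higher in lactate than in media: Ptcd3 (0.74), Chchd1 (0.68) and Gadd45gip1 (0.41). With the donor as a block Gadd45gip1 lost the call (adjusted p = 0.0116), which left 2 of 5. Of its exon length 42.0% is shared with other genes, so its value is uncertain. Dap3, a GTP-binding protein of the small subunit, was at -0.24 on the log2 scale (adjusted p = 0.0362, and called lower in DESeq2 with adjusted p = 0.00349) after 1.15 between media and naïve (adjusted p = 1.75e-07). Of the 26 assembly factors 12 were higher in lactate (46.2%) and 0 lower (median 0.43). The largest increases were those of the rRNA methyltransferase Mrm3 (1.43), Fastkd2 (1.17), Trub2 (1.08) and the GTPase Noa1 (1.05). The donor block left 11 of the 12, without Mpv17l2 (adjusted p = 0.0245). Among the 12, Rpusd3 and Rbfa share 65.2% and 43.9% of their exon length with other genes, so their values are uncertain. Between media and naïve, 5 assembly factors were higher and 6 lower (19.2% and 23.1%, median -0.09). These shares were below the 28.5% and 29.0% of all tested genes. Fastkd2, for example, was at 24.7 CPM in naïve, 15.3 CPM in media and 34.4 CPM in lactate on average.

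Of the 13 translation factors 4 were higher in lactate (30.8%, against 13.9% of all tested genes). These were the elongation factors Tsfm (1.35 ± 0.13 in log2, from 24.3 to 61.9 CPM), Gfm1 (0.70) and Tufm (0.70) and the recycling factor Gfm2 (0.43). Taco1, a translational activator, was called as well with the donor block (0.63, adjusted p = 0.00388). The initiation factors Mtif2 and Mtif3 differed by 0.08 and 0.13 and did not pass the threshold, and Mtif3 shares 29.4% of its exon length with other genes. Of the 6 genes of mitochondrial transcription and mRNA handling 4 were higher (66.7%). These were Lrpprc (0.99) and its partner Slirp (0.46), the elongation factor Tefm (0.95) and the polymerase Polrmt (0.71). Slirp shares 97.8% of its exon length with other genes, so its value is uncertain. Tfam, which packages mitochondrial DNA, differed by 0.14 (adjusted p = 0.261). Polrmt was lower in media than in naïve (-1.03, adjusted p = 3.97e-05). The mRNAs encoded in mitochondrial DNA were looked for under symbols beginning with mt-. None was found among the tested genes, so they were not analysed here.

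The cytosolic ribosomal protein genes, 89 by their symbols, mostly shared the sign of the members with lactate but had smaller shares called higher. With lactate the sign was positive in 87 of the 89, against 75 of the 77 members. Of the 89, 11 were higher and 0 lower (12.4% higher, against 13.9% of all tested genes), with a median of 0.23 on the log2 scale. The donor block called 4 of the 89 higher (Rpl13a, Rpl7l1, Rps19bp1 and Rps27l) and DESeq2 17. Rpl13a shares 35.4% of its exon length with other genes, so its value is uncertain. The list rests on symbols alone, so not every gene on it need encode a part of the ribosome. With activation 21 were higher and 12 lower (23.6% and 13.5%, against 28.5% and 29.0% of all tested genes), with a median of 0.05. Their summed level was 54770 to 59900 CPM in naïve, 57620 to 67870 CPM in media and 59750 to 74370 CPM in lactate, so that the groups overlapped. The difference between the cytosolic and the mitochondrial list was not tested.

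**Figure D5:**
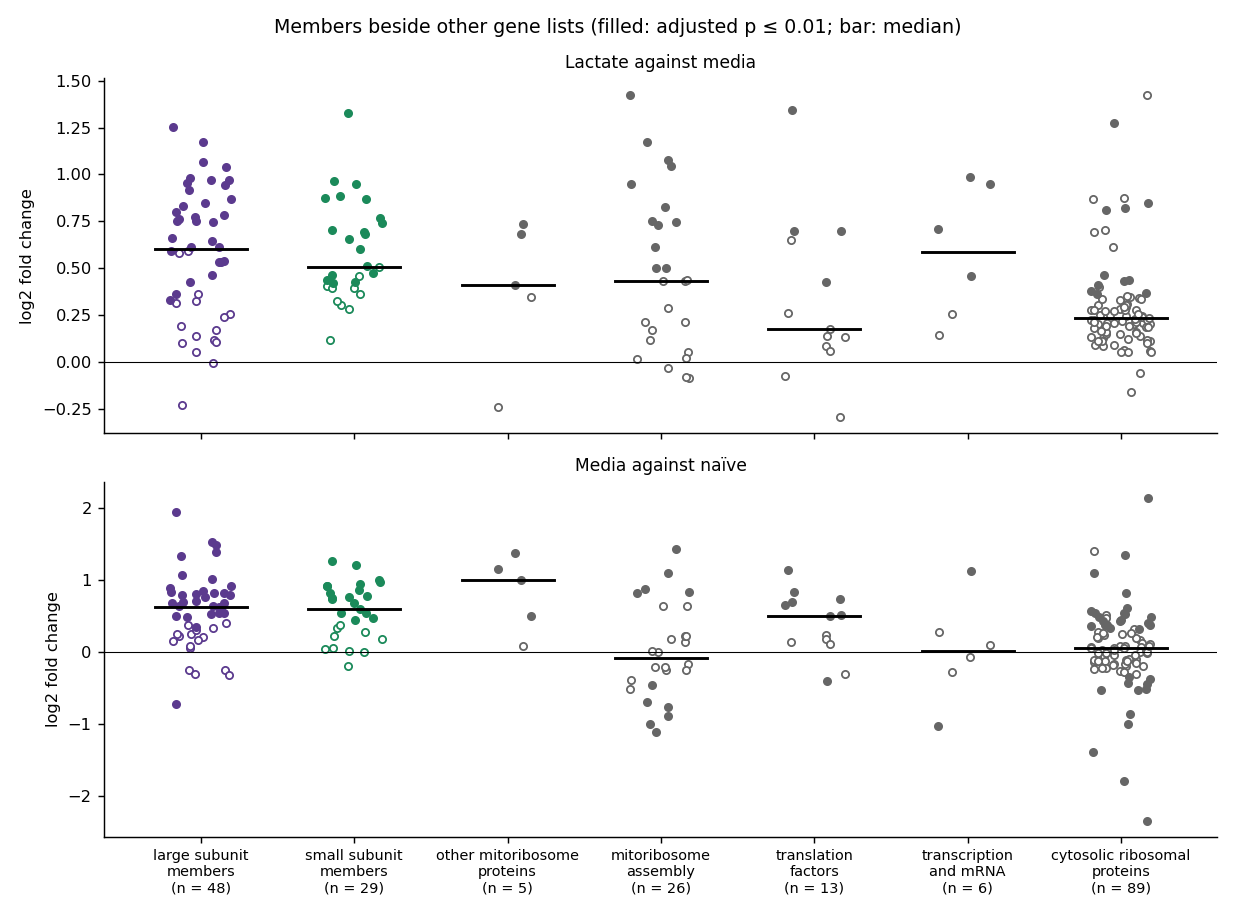
Log2 fold changes (y axis) of the members and of 5 other gene lists (x axis, with the number of genes) for lactate against media (top) and media against naïve (bottom), each point 1 gene and each bar the median of its list. Filled points had an adjusted p of at most 0.01. The member medians are 0.60 and 0.50 in the top panel and 0.62 and 0.60 in the bottom panel, and the assembly factors have a median of 0.43 in the top panel and -0.09 in the bottom panel.

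For single members the exact two-sided permutation test over the 70 arrangements of 4 against 4 libraries cannot go below p = 0.0286. Each member named here as without overlap between a pair of groups reached that value. This follows from the lack of overlap itself and adds no further support. Nothing in the labels ties the naïve libraries to the mice of the activated ones. The p-values measure the spread between these libraries.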

How the data were processed

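RNA-seq of poly(A)-selected, stranded libraries was carried out in 12 samples. Per the study's methods and the processing notes of the submitters, the authors converted base calls with bcl2fastq 2.20.0.422, mapped reads with STAR 2.7.5b to GRCm38, discarded PCR duplicates, and used featureCounts to assign reads with a unique position to Ensembl exons. The deposited table holds these raw counts per gene, not normalized, with the gene length, and its lengths equal the exon union of GENCODE M21 for all 77 members. The strand setting and handling of overlapping genes are not given in the sources used here. Removing duplicates can lower the counts of short, abundant genes most, and shared exons can move reads between genes.

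Genes that reached 1 CPM in at least 3 libraries were tested in R 4.3.3 with edgeR 4.0.16 (TMM, quasi-likelihood test, 1 model over 3 groups with no block, two-sided, Benjamini-Hochberg adjustment over all 13767 genes, threshold 0.01), and the fit was tested on simulated counts. The standard error of a log2 fold change was obtained from its F statistic. CPM are scaled by TMM, TPM use the table's lengths, and differences within a run add 0.5 CPM before log2. The spread between libraries, which includes counting error, sets the precision. Counting error weighs more in members with low counts, which went down to 58 in a library. Groups were read from the labels, and donors from the donor tags, taken as different mice in low and high library numbers. Same-numbered media and lactate libraries correlated in their deviations from the group means at 0.374, 0.297, 0.0038 and 0.553, and those of the same donor at 0.374, 0.211 and 0.553. The donor fit therefore stands beside the named results whose call it changes.

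Named members are, in each subunit, the 5 called members with the largest increase and decrease in lactate against media and in media against naïve, the 3 with the highest and lowest TPM, and those with a role set beforehand. Members with at least 20% shared exons were to be named only if 5 or fewer. As there were 9, they are given as a count. Others were named after their values were seen. The members and lists were chosen with earlier results of these data known, and promoters came from RefSeq windows. Alternatives were limma 3.58.1 voom, DESeq2 1.42.0, edgeR's likelihood ratio test, other scalings and filters, blocks by donor and title number, a run term, a length correction and leaving out each library. The TPM by coding transcript length and the count without shared exons were added after the data had been seen. 1 B cell marker of the lists is not reported here.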

Additional observations from a re-analysis of the deposited data

Results flagged for a closer look

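In 114 groups of 4 libraries examined, 9 held a library far from the other 3 (by Dixon's test), where chance gives about 1 in 20. Media replicate 2 was that library in the summed small subunit level (854.5 CPM, against 1005 to 1021 CPM in the other media libraries), in Mrps15 (47.91 CPM) and in Mrpl12 (48.07 CPM). Among the lactate libraries, replicate 1 stood apart in Mrpl14 (23.62 CPM, low) and Mrpl16 (53.29 CPM, high), and replicate 3 in Mrps25 (35.44 CPM) and Mrps6 (27.94 CPM), both high. Among the naïve libraries, replicate 2 was high in Mrpl1 (16.82 CPM) and replicate 4 in Mrps18a (28.07 CPM). Media replicate 2 came, by this reading of the donor tags in low and high library numbers, from a mouse without a lactate library. Without it, 42 of the 77 members were higher in lactate than in media, with a median log2 fold change of 0.52.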

How the results depend on the processing

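Over 27 alternatives the number of members called between lactate and media lay between 39 (without lactate replicate 3) and 64 (adjusted p of 0.05). In that setting and with DESeq2 (58 called), 1 of them, Mrpl9, was lower, and in the others 0 were lower. The median log2 fold change lay between 0.49 (donor block) and 0.62 (without media replicate 4). Counts of called members between media and naïve lay between 42 (replicate block by title number) and 57. With the title number as a replicate block, 59 members were called between lactate and media and 69 between lactate and naïve, and the donor block called 45 between lactate and media. The blocks moved no count of members by over 1.5 times, whereas the cytosolic ribosomal genes higher in lactate numbered 4 with the donor block and 17 with DESeq2, against 11. Without single libraries, the small subunit median between media and naïve ranged from 0.43 to 0.68, and between lactate and naïve from 0.99 to 1.16, while the large subunit median between lactate and naïve ranged from 1.06 to 1.21. That last median was 1.065 with DESeq2 and 1.066 with DESeq2 size factors. The large subunit share was 66.7% in naïve, 66.8% in media and 66.3% in lactate by CPM, 71.6%, 72.5% and 71.9% with subunits by position, and, by coding transcript length, 70.03% in naïve, 69.7% in media and 68.3% in lactate. The sign of uncalled values changed in some settings. For Mrps2 between media and naïve it was -0.02 with DESeq2 and with DESeq2 size factors, and -0.066 to 0.124 without single libraries. For Mrps12 it was -0.043 with DESeq2, -0.044 with its size factors, -0.011 with upper quartile scaling, -0.023 with at least 10 counts in every library, and -0.091 to 0.069 without single libraries. Without single libraries the values between media and naïve were -0.019 to 0.292 for Mrpl55 and -0.002 to 0.188 for Mrpl36, and for Mrpl33 between lactate and media -0.018 to 0.165. The cause of these shifts was not tested. With 4 libraries a group, changes near 0.4 on the log2 scale lay at the threshold.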
